A study of Mus musculus with 2 samples.

Results

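The platelet-derived growth factor (PDGF) genes examined here were the 4 ligand genes Pdgfa, Pdgfb, Pdgfc and Pdgfd and the 2 receptor genes Pdgfra and Pdgfrb, 6 of the 32285 genes in the count tables. They were chosen by name, as the known members of the family, by a rule that uses no measured value, although earlier results of these data were known. All 6 were found in both libraries. In GENCODE M21 on GRCm38 they are protein-coding genes: Pdgfa (ENSMUSG00000025856) spans 138976014 to 138997370 on chromosome 5 (minus strand), and Pdgfra (ENSMUSG00000029231) on the plus strand of the same chromosome at 75152292 to 75198215. Pdgfb (ENSMUSG00000000489) spans 79995874 to 80014977 on chromosome 15 (minus strand), and Pdgfc (ENSMUSG00000028019) on the plus strand of chromosome 3 at 81036416 to 81214040. Pdgfd (ENSMUSG00000032006) lies on the plus strand of chromosome 9 at 6168584 to 6378850, and Pdgfrb (ENSMUSG00000024620) on the plus strand of chromosome 18 at 61045150 to 61085061. The counts were taken over whole genes from the 3′ ends of transcripts, so they do not separate exons or isoforms.

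PDGFs are secreted dimers that bind receptor tyrosine kinases on mesenchymal cells and drive their growth and migration. PDGF-A and PDGF-B are cut to their active form inside the cell, whereas PDGF-C and PDGF-D are secreted with an inhibitory CUB domain that a protease outside the cell must remove. PDGF-A and PDGF-C act mainly through the alpha receptor, PDGF-D mainly through the beta receptor, and PDGF-B through both. In the kidney, endothelial PDGF-B draws pericytes and mesangial cells to vessels through the beta receptor, and PDGF receptors are known for their part in the growth of fibroblasts after injury.

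The tissue was mouse kidney, taken on day 14 after ischaemia and reperfusion of 1 kidney by clamping of its renal artery. The control library came from Cre- mice, and the haplodeficient library from Cdh5-CreERT2; Phd3f/+ mice, which carry 1 floxed copy of Phd3 (Egln3, an oxygen-dependent prolyl hydroxylase) and a tamoxifen-activated Cre under the promoter of the endothelial cadherin gene Cdh5. Both groups had the same injury and 4 tamoxifen injections, and both libraries belonged to batch 1. The labels say neither how many animals went into a library nor whether the Cre- mice carried a floxed allele, and the Cre is directed at endothelium, so every other class is a cell type in which it was not the stated target. With 1 library per group there is no replicate check and no test between groups. Ranges in parentheses are 95% intervals that cover counting error and nothing else, and a difference between the libraries cannot be told apart from one between animals or preparations.

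The control library gave 8737 cells with a median of 8796 UMIs (unique molecular identifiers, the counted transcripts), and the haplodeficient library 9222 cells with a median of 5482.5. The libraries differed in quality: the median mitochondrial share per cell was 10.1% and 2.69%. They had 23 cell barcodes in common, 0.263% and 0.249% of their cells. Of 40 clusters, all but 4 were named from marker genes as 1 of 19 classes, written here with "-like" because the names were rebuilt. The 6 PDGF genes took no part in the clustering or the naming. Egln3, the targeted gene, stood at 23.6 and 21.2 CPM in endothelial-like cells, on 58 and 111 UMIs. The labels do not say whether the recombined allele still gives a counted transcript, so this does not check them. Proximal tubule-like cells were the class most unequally represented, with 2911 and 324 cells.

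A level is the gene's summed UMIs in a class, scaled to 1000000 UMIs of that class (CPM), and paired values give the control library first. Levels of different genes are not ranked against each other, because 3′ counts of different transcripts need not be equally efficient. A class was taken as a source of a ligand, or a carrier of a receptor, when in each library it had at least 20 CPM and 10 UMIs and its lower limit lay above the upper limit of free RNA, measured in barcodes of at most 100 UMIs. Under this rule Pdgfa had 6 named source classes, Pdgfb 5, Pdgfc 4 and Pdgfd 5, while Pdgfra had 1 carrier class and Pdgfrb 3. For a difference between the libraries the size rule required a log2 ratio (5 CPM added to each value) of at least 1 in either direction and intervals that did not overlap, in genes of at least 30 UMIs and a mean of 10 CPM.

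**Figure D1:**
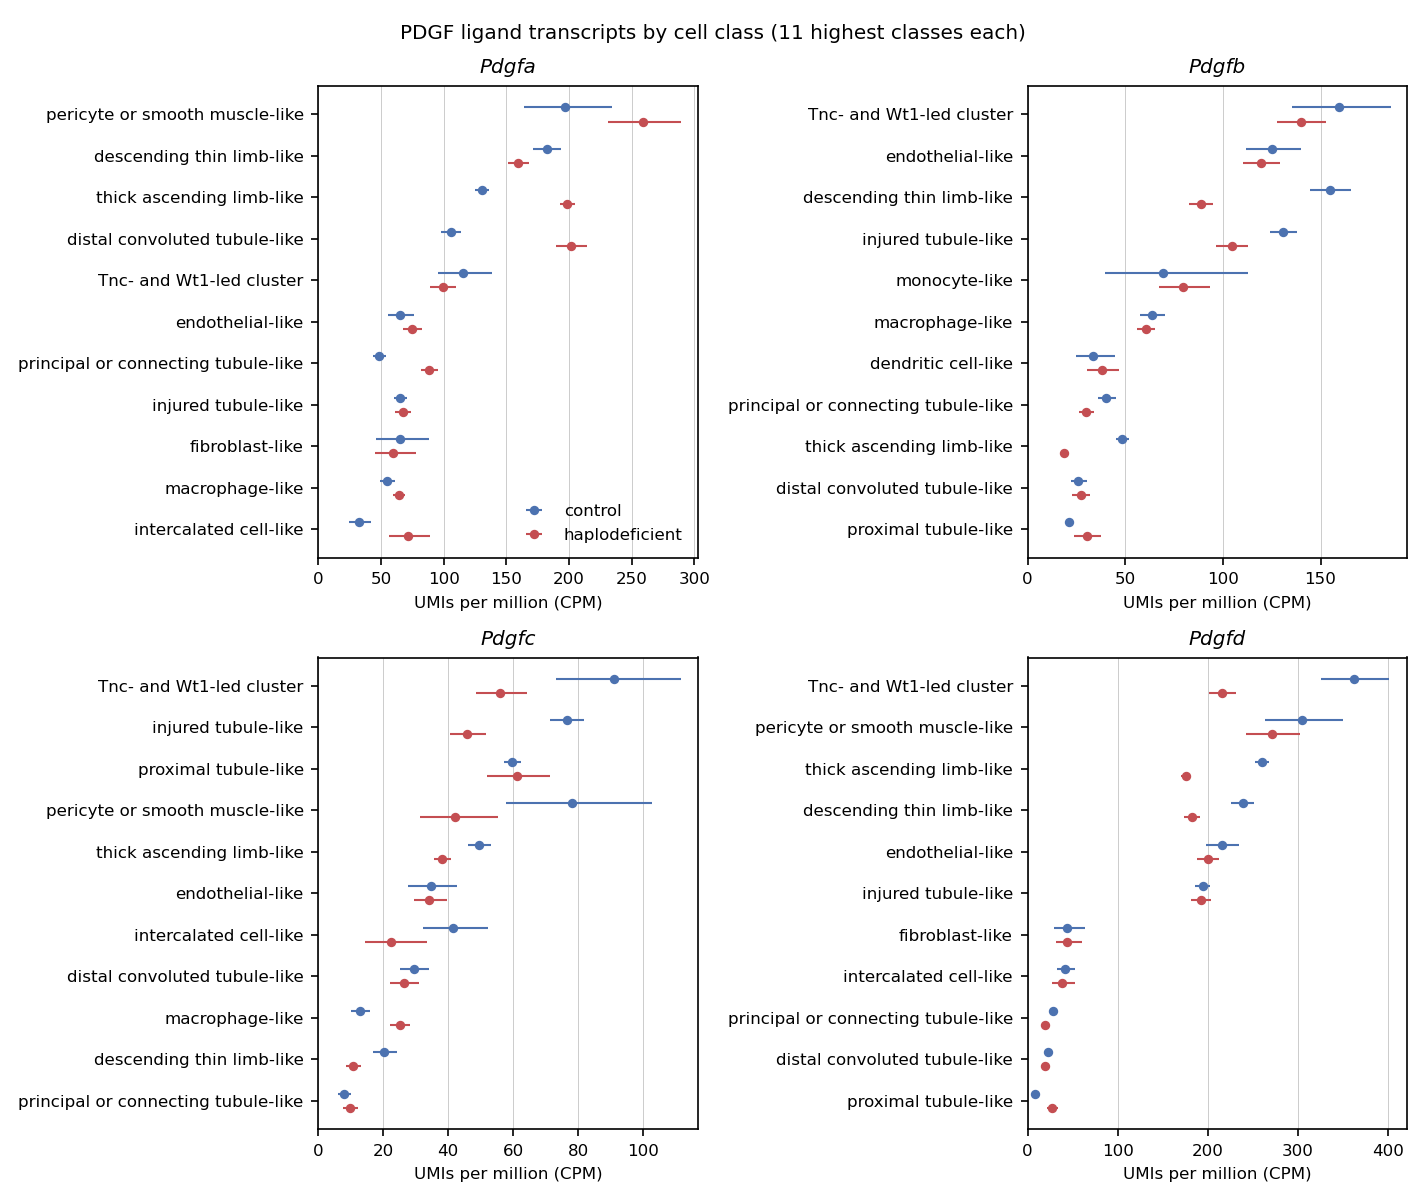
Levels of the 4 PDGF ligand transcripts in the 11 highest of the cell groups ranked for each, in CPM, for the control (blue) and the haplodeficient (red) library. Left out before ranking were NK cell-like cells, unnamed clusters other than the Tnc- and Wt1-led one, and classes under 20 cells in a library, such as urothelium-like cells. Points are 1 library each and bars are exact Poisson 95% intervals. Pdgfa had its highest value in pericyte or smooth muscle-like cells, Pdgfb was shared by endothelial-like, tubular and myeloid cells, and Pdgfd separated a group of high from a group of low classes.

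Pdgfa, the ligand that forms PDGF-AA, was a transcript of contractile mesenchymal cells and of the loop and distal nephron. Pericyte or smooth muscle-like cells gave a control value of 197 CPM (164 to 234) and a haplodeficient value of 259 CPM (231 to 289). Descending thin limb-like cells had 182 CPM (171 to 194) and 159.5 CPM (151 to 168), and thick ascending limb-like cells 131 CPM (125 to 136) and 198 CPM (193 to 205). Distal convoluted tubule-like cells had 106 CPM (97.8 to 114) and 202 CPM (189.8 to 215). The top of this order was not the same in the libraries: in the control the pericyte or smooth muscle-like and thin limb intervals overlapped above those of the thick limb and distal convoluted tubule, and in the haplodeficient library the former stood alone and the thick limb and distal convoluted intervals overlapped below it. Principal or connecting tubule-like cells were a weaker source at 48.6 and 88.5 CPM. Urothelium-like cells also passed at 112 and 157 CPM, on 18 and 24 cells. Thick ascending limb-like cells, with 11.9% and 12.7% of the cells, held 30.3% and 39.0% of all Pdgfa UMIs.

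Within the contractile cells Pdgfa was uneven. Pericyte-like cells had 286 and 477 CPM, vascular smooth muscle-like cells 143 and 251 CPM and renin cell-like cells, whose leading genes included the immediate-early gene Nr4a2 beside Ren1, 217 and 231 CPM. Fibroblast-like cells had 64.8 and 59.9 CPM and were no source under the rule, as free RNA held Pdgfa at 38.0 and 70.9 CPM. Endothelial-like cells as a class also missed the rule, at 65.5 and 74.8 CPM, but arterial-like endothelial cells passed it at 154 and 158 CPM.

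Pdgfa was higher in the haplodeficient library in most of the classes where it could be compared. The intervals of the ratio (haplodeficient over control CPM) lay above 1 in 7 of 12 classes and below 1 in 1. The share of all genes with such intervals was not computed, so this count has no background to be read against. The only called change of Pdgfa was in intercalated cell-like cells, from 32.3 to 71.2 CPM on 54 and 76 UMIs, a ratio of 2.20 (1.53 to 3.18) and a log2 ratio of 1.03. That value lies at the threshold: with at most 25% mitochondrial UMIs per cell the ratio was 1.66, and with at least 1000 UMIs per barcode 2.08, both short of the rule, and it was also short with each cell named alone, as a mean over cells and with median-of-ratios scaling. The 6 injured tubule markers, of which 5 and 4 were detected, summed to 196 and 435 CPM in these 172 and 108 cells, and their part in the result was not tested. In this class 2.86% of all 8485 genes compared passed the size rule in either direction. An unnamed cluster of 309 and 237 deep cells had all 8 intercalated markers raised, with most principal cell markers too, and was not part of the class. There Pdgfa was at 46.8 and 90.5 CPM, a log2 ratio of 0.88, short of the rule. Below the threshold, the ratio was 1.91 (1.73 to 2.11) in distal convoluted tubule-like cells (2.06, with a log2 ratio of 1.00 just past the threshold, with at least 1000 UMIs per barcode), 1.82 (1.60 to 2.07) in principal or connecting tubule-like cells, 1.52 (1.44 to 1.60) in thick ascending limb-like cells and 1.32 (1.07 to 1.63) in pericyte or smooth muscle-like cells. In descending thin limb-like cells it was 0.874 (0.806 to 0.949), the 1 class with an interval below 1, and at a finer clustering it was 1.01.

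The distal ratios were not the same in all clusters of a class. Among thick ascending limb-like cells Pdgfa went from 41.2 to 94.7 CPM in the Egf-led cluster (305 and 42 cells), but only from 157 to 202 CPM in the Slc12a1-rich, Enox1-led cluster (305 and 558 cells) and from 169 to 198 CPM in the Mmp7-led cluster (426 and 573 cells). The Mmp7-led cluster was the most weakly marked, with 5 of 7 thick limb markers raised and a mean log2 fold of 1.05 over the list. The Enox1-led and Egf-led clusters had 7 of 7 raised, at 2.87 and 3.27. With the same weight for each cluster in both libraries the ratio of the whole class was 1.27. Among principal or connecting tubule-like cells the Calb1-led cluster went from 29.8 to 86.7 CPM, a ratio of 2.91 (2.26 to 3.76), and the Sprr2f-led cluster from 72.9 to 88.9 CPM, a ratio of 1.22 (1.05 to 1.42). In single cells thinned to 1000 UMIs each, a Pdgfa UMI was found in 6.99% (4.77 to 9.83) and 17.7% (13.5 to 22.5) of distal convoluted tubule-like cells and in 11.6% (9.66 to 13.8) and 18.7% (16.5 to 21.1) of thick ascending limb-like cells. In T cell-like cells, taken as a class that should lack the gene, the shares were 0% (0 to 2.09) and 0.098% (0.00248 to 0.545). The depth before thinning had a median of 10682 and 9932 UMIs in distal convoluted, 11333.5 and 9519 in thick ascending limb and 2709 and 2588 in T cell-like cells, and the unthinned shares 48.4% and 68.9%, 54.0% and 74.0% and 1.12% and 0.481%.

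Pdgfb, the ligand that recruits pericytes to endothelium, had endothelial, tubular and myeloid sources. Endothelial-like cells had 125 CPM (112 to 140.2) and 119 CPM (110.3 to 129). Injured tubule-like cells, marked by Havcr1 and Vcam1, had 131 CPM (124 to 138) and 104 CPM (96.3 to 113), and descending thin limb-like cells 155 CPM (145 to 165) and 88.6 CPM (82.5 to 95.1). Macrophage-like cells had 63.7 CPM (57.5 to 70.3) and 60.5 CPM (56.0 to 65.2), and monocyte-like cells 69.5 CPM (39.7 to 113) and 79.6 CPM (67.3 to 93.5). In the control the thin limb interval lay above that of endothelial-like cells, and in the haplodeficient library below it. Endothelial-like cells, with 4.17% and 8.58% of the cells, held 5.52% and 13.8% of all Pdgfb UMIs, a minority of this transcript. Injured tubule-like cells, with 6.88% and 3.34% of the cells, held 24.6% and 13.3%. Thin limb-like cells, with 3.93% and 7.15% of the cells, held 15.7% and 17.1%. Pdgfb was low in the mesenchymal classes that carry its receptors: pericyte or smooth muscle-like cells had 3.12 and 5.04 CPM on 2 and 6 UMIs and fibroblast-like cells 4.86 and 2.26 CPM on 3 and 2 UMIs, under the free-RNA levels of 28.9 and 39.3 CPM. This does not hold for every group with a receptor: endothelial-like cells and 2 unnamed clusters described below held both Pdgfb and Pdgfrb.

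The endothelial Pdgfb level depended on the vessel. Arterial-like cells had 199.8 CPM (161 to 245) and 129.8 CPM (102 to 163), descending vasa recta-like cells 111 CPM (87.0 to 141) and 156 CPM (132 to 182), and glomerular-like cells 120.2 CPM (80.5 to 173) and 167 CPM (139 to 199.8). Capillary-like cells were lower at 58.2 and 79.5 CPM, and activated-like cells, marked by Sele and Selp, were lowest at 7.97 and 44.9 CPM on 1 and 11 UMIs. The arterial interval lay above that of capillary-like cells in both libraries. The ratio was 0.65 (0.472 to 0.892) in arterial-like and 1.40 (1.05 to 1.87) in descending vasa recta-like cells, with intervals on opposite sides of 1; a test of that difference was not possible. Over the whole endothelial-like class these values gave a ratio of 0.953 (0.83 to 1.10).

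**Figure D2:**
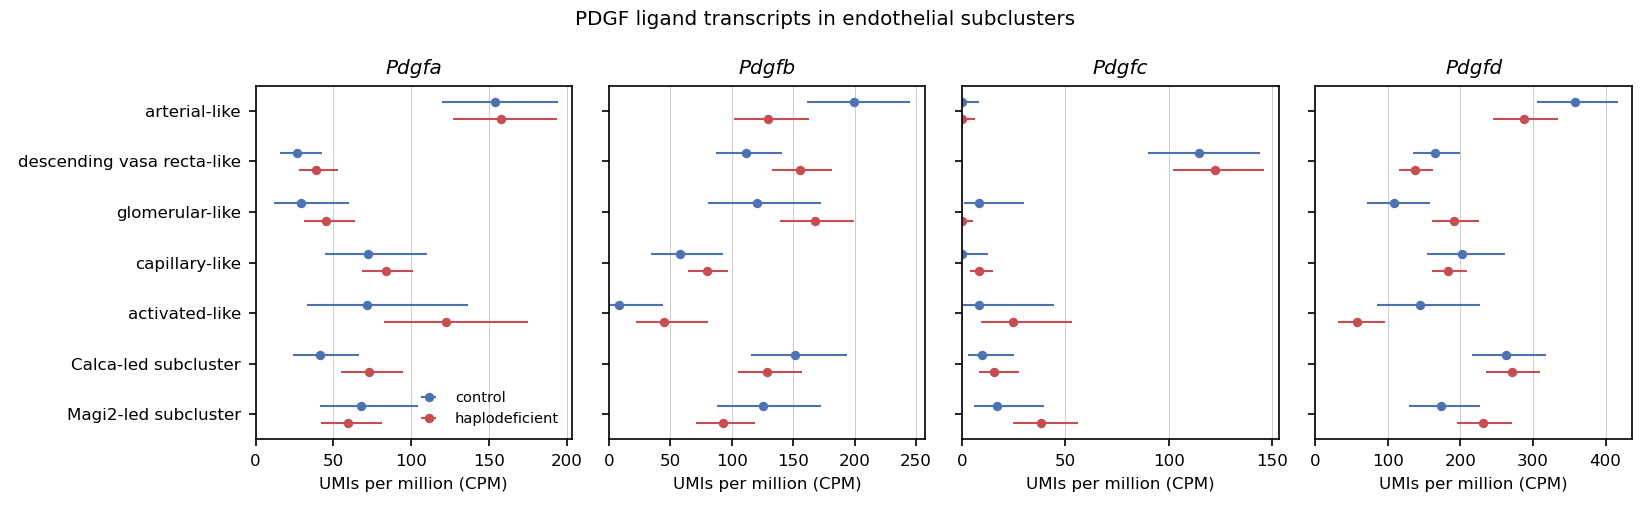
Levels of the 4 PDGF ligand transcripts in endothelial subclusters, in CPM, for the control (blue) and the haplodeficient (red) library, with exact Poisson 95% intervals. Pdgfc was found mainly in descending vasa recta-like cells, and Pdgfa, Pdgfb and Pdgfd were high in arterial-like cells. The Calca-led and the Magi2-led subclusters carry genes of other cell types and were left unnamed.

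Among the 11 classes where Pdgfb could be compared, 2 passed the size rule, both lower in the haplodeficient library. In thick ascending limb-like cells, where 1.05% of all genes compared passed in either direction, Pdgfb was at 48.4 CPM (45.1 to 52.0) and 18.8 CPM (17.0 to 20.7), a ratio of 0.388 (0.343 to 0.439) and a log2 ratio of -1.17. It was lower in each of the 3 clusters of the class, from 96.7 to 44.0 CPM in the weakly marked Mmp7-led, from 36.4 to 12.2 CPM in the Enox1-led and from 16.8 to 1.93 CPM in the Egf-led cluster. The log2 ratio was -0.93 at a finer clustering and -0.65 as a mean over cells, both short of the rule. The 6 injured tubule markers summed to 1989 and 2583 CPM in the class, and their part was not tested. In intercalated cell-like cells Pdgfb was at 19.8 and 4.69 CPM on 33 and 5 UMIs, a ratio of 0.237 (0.0722 to 0.611). There the ratio was 0.891 with at most 25% mitochondrial UMIs per cell, and with each cell named alone the log2 ratio was -0.97, so neither gave the call. Neither class was a source under the rule. In the unnamed cluster of 309 and 237 cells with intercalated and principal cell markers, Pdgfb was at 28.5 and 12.0 CPM. Its log2 ratio of -0.98 was short of the size rule.

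Short of the size rule, Pdgfb had a ratio of 0.572 (0.519 to 0.631) in descending thin limb-like, 0.798 (0.724 to 0.878) in injured tubule-like and 0.743 (0.623 to 0.884) in principal or connecting tubule-like cells. Proximal tubule-like cells had the 1 ratio whose interval lay above 1, at 1.42 (1.11 to 1.79), in a class where the median log2 ratio of all genes compared was 0.20. The ratio was 0.95 (0.837 to 1.08) in macrophage-like cells and 1.14 (0.682 to 2.06) in monocyte-like cells, the latter on 16 and 148 UMIs. Within macrophage-like cells Pdgfb was at 67.7 and 68.0 CPM in the Ccl12-led, 43.3 and 60.3 CPM in the Gpnmb-led and 87.7 and 49.7 CPM in the dividing cluster. After thinning, 8.31% (5.59 to 11.8) and 8.58% (6.68 to 10.8) of endothelial-like cells had a Pdgfb UMI, against 0% (0 to 2.09) and 0.49% (0.159 to 1.14) of T cell-like cells, and unthinned 35.2% and 38.6% against 2.23% and 1.25%.

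Pdgfc, a CUB-domain ligand of the alpha receptor, was found in proximal and injured tubule, in the thick limb and in contractile cells. Proximal tubule-like cells had 59.7 CPM (57.2 to 62.3) and 61.1 CPM (52.1 to 71.3), injured tubule-like cells 76.5 CPM (71.2 to 81.9) and 45.9 CPM (40.6 to 51.8), and thick ascending limb-like cells 49.5 CPM (46.1 to 53.1) and 38.1 CPM (35.5 to 40.8). Pericyte or smooth muscle-like cells had 78.0 CPM (57.9 to 103) and 42.0 CPM (31.2 to 55.4) on 50 and 50 UMIs. Proximal tubule-like cells held 45.0% and 6.36% of all Pdgfc UMIs, with 33.3% and 3.51% of the cells. Among proximal tubule-like clusters Pdgfc was highest in the Slc5a12-positive, Spp2-led one, at 90.9 and 89.7 CPM. Endothelial-like cells as a class were at 34.6 and 34.2 CPM, but 73 and 126 of its 85 and 179 UMIs there lay in descending vasa recta-like cells, at 115 CPM (89.8 to 144) and 123 CPM (102 to 146). Arterial-like cells had 0 and 0 UMIs, where a count of 0 allows up to 6.59 and 5.19 CPM.

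No class passed the size rule for Pdgfc. The interval lay below 1 in 5 of 9 classes and above 1 in 1, a count for which the share of all genes was not computed either. The ratio was 0.601 (0.521 to 0.691) in injured tubule-like, 0.539 (0.357 to 0.814) in pericyte or smooth muscle-like, 0.527 (0.397 to 0.698) in descending thin limb-like and 0.77 (0.697 to 0.85) in thick ascending limb-like cells, and 1.02 (0.867 to 1.20) in proximal tubule-like cells. Macrophage-like cells were the exception, at 12.7 and 25.01 CPM and a ratio of 1.96 (1.52 to 2.56). This was seen in both large macrophage-like clusters, from 11.4 to 27.8 CPM in the Ccl12-led and from 12.0 to 26.4 CPM in the Gpnmb-led one. Free RNA held Pdgfc at 24.99 and 19.8 CPM, so macrophage-like cells were no source in either library.

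Pdgfd, the CUB-domain ligand of the beta receptor, split the classes into high and low. Pericyte or smooth muscle-like cells had 304 CPM (263 to 350.0) and 271 CPM (242 to 302), endothelial-like cells 216 CPM (198 to 235) and 199.6 CPM (188 to 212), and injured tubule-like cells 194 CPM (186 to 203) and 192 CPM (181 to 204). Descending thin limb-like cells had 238 CPM (226 to 251) and 182 CPM (173 to 191), and thick ascending limb-like cells 259.9 CPM (252 to 268) and 176 CPM (170.2 to 182). The next named class in both libraries, fibroblast-like cells, was at 43.7 and 44.1 CPM, under all 5 sources. Injured tubule-like cells stood far above proximal tubule-like cells, which had 7.81 CPM (6.92 to 8.79) and 27.2 CPM (21.3 to 34.2). Thick ascending limb-like cells held 42.0% and 39.0% of all Pdgfd UMIs.

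Among vessel cells Pdgfd was highest in renin cell-like cells, at 382 and 348 CPM, and arterial-like endothelial cells, at 358 and 287 CPM. Vascular smooth muscle-like cells had 257 and 210.0 CPM and pericyte-like cells 137 and 121 CPM, the latter on 11 and 16 UMIs. Glomerular-like endothelial cells had 108 and 191 CPM, a ratio of 1.77 (1.16 to 2.80), and arterial-like ones a ratio of 0.803 (0.643 to 1.00).

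One class passed the size rule for Pdgfd. In proximal tubule-like cells it was higher in the haplodeficient library, with 275 and 72 UMIs, a ratio of 3.48 (2.64 to 4.52) and a log2 ratio of 1.33. In this class 2.59% of all genes compared passed in either direction, and the median log2 ratio of all of them was 0.20, against which the Pdgfd value is to be read; with median-of-ratios scaling the ratio was 2.96. The ratio was 4.75 (2.98 to 7.40) in the Slc5a12-positive Spp2-led and 3.14 (2.09 to 4.62) in the Slc13a3-led cluster. With at most 25% mitochondrial UMIs per cell it was 2.10 and its log2 ratio of 0.86 fell short of the rule. Other markers moved with it in these cells: the 6 injured tubule markers summed to 170.2 and 316 CPM, pericyte or smooth muscle markers (10 and 9 of 10 detected) to 18.6 and 56.6 CPM, and the 7 macrophage markers to 20.1 and 80.4 CPM. Their part in the result was not tested. In the sources the ratios were 0.676 (0.647 to 0.707) in thick ascending limb-like, 0.764 (0.71 to 0.822) in descending thin limb-like, 0.925 (0.833 to 1.03) in endothelial-like, 0.989 (0.919 to 1.06) in injured tubule-like and 0.89 (0.742 to 1.07) in pericyte or smooth muscle-like cells.

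Pdgfra, the alpha receptor, was carried by fibroblast-like cells alone under the rule. The control value there was 622 CPM (561 to 687) and the haplodeficient value 436 CPM (394 to 482), on 384 and 386 UMIs. With 1.29% and 1.27% of the cells they held 88.9% and 75.2% of all Pdgfra UMIs. The 2 fibroblast-like subclusters differed: interstitial fibroblast-like cells had 839.8 CPM (749.9 to 938) and 872 CPM (755 to 1001), and perivascular fibroblast-like cells, marked by Pi16 and Clec3b, 279 CPM (216 to 355) and 284 CPM (245 to 328). These intervals are far apart in both libraries. Pericyte-like cells had 0 UMIs in both, which allows up to 37.3 and 22.7 CPM, and renin cell-like cells had 0 UMIs as well. In epithelial classes no level exceeded the free-RNA limits.

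The ratio of Pdgfra over all fibroblast-like cells was 0.701 (0.607 to 0.809), yet neither subcluster showed it, with 1.04 (0.865 to 1.24) in interstitial and 1.02 (0.765 to 1.37) in perivascular fibroblast-like cells. The mix of the subclusters differed: interstitial fibroblast-like cells were 72 of 113 in the control, 63.7% (54.1 to 72.6), and 38 of 117 in the haplodeficient library, 32.5% (24.1 to 41.8). With the same weight for each subcluster in both libraries the ratio was 1.03. Proximal tubule markers summed to 269 and 9.04 CPM in these cells (9 and 6 of 10 detected), and their part was not tested. No member passed the size rule in fibroblast-like cells, where 3.15% of all genes did in either direction. After thinning, 51.3% (41.7 to 60.8) and 39.3% (30.4 to 48.8) of fibroblast-like cells had a Pdgfra UMI, at median depths of 4645 and 6327 UMIs, and 83.2% and 77.8% unthinned. No T cell-like cell had one.

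Endothelial-like cells showed Pdgfra at 9.36 and 16.0 CPM, a ratio of 1.71 (1.07 to 2.85). Of those 23 and 84 UMIs, 19 and 79 came from a Magi2-led subcluster of 17 and 27 cells that also held podocyte and mesangial genes, with median depths of 15575 and 25801 UMIs against 3971 and 3910 for the class. In that subcluster the mesangial gene Itga8 stood at 291 and 489 CPM.

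**Figure D3:**
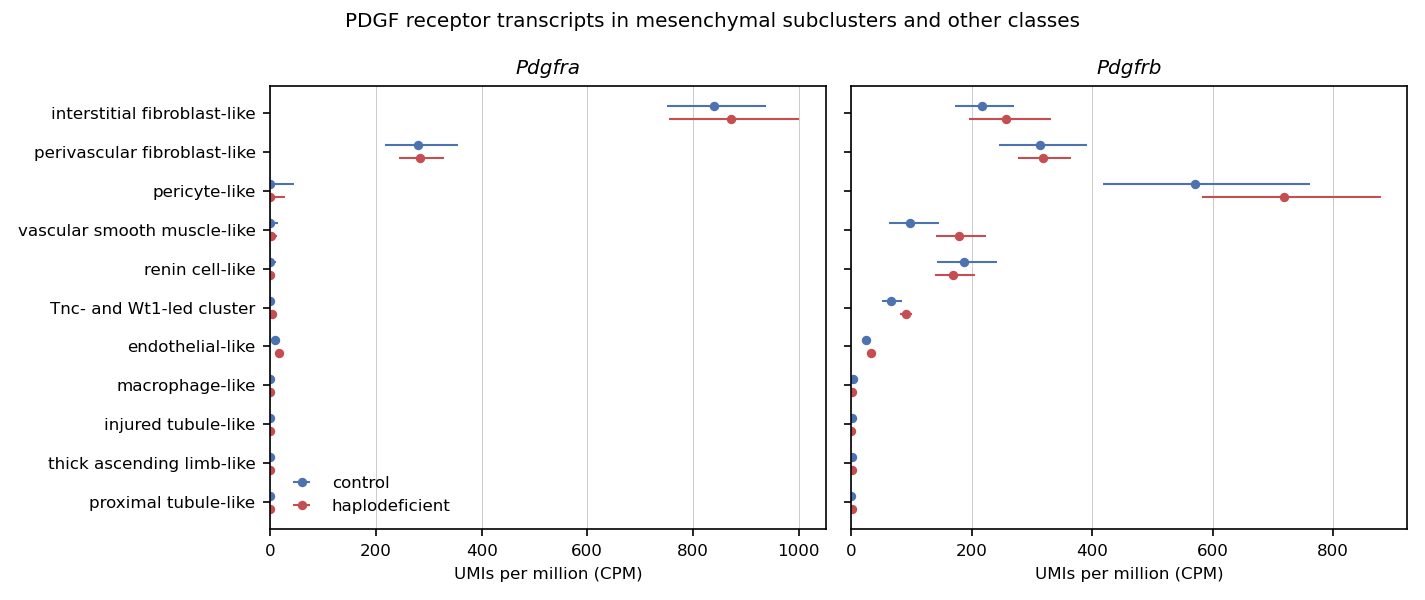
Levels of Pdgfra and Pdgfrb transcripts in 5 mesenchymal subclusters and 6 other groups of cells, in CPM, for the control (blue) and the haplodeficient (red) library, with exact Poisson 95% intervals. Pdgfra was limited to the fibroblast-like subclusters at this scale, and Pdgfrb was highest in pericyte-like cells.

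Pdgfrb, the beta receptor, was carried by fibroblast-like and by pericyte or smooth muscle-like cells. Fibroblast-like cells had 254 CPM (216 to 297) and 307 CPM (272 to 346), and pericyte or smooth muscle-like cells 204 CPM (171 to 243) and 234 CPM (207 to 263). The highest level was in pericyte-like cells, at 572 CPM (418 to 762) and 719 CPM (582 to 879). Perivascular fibroblast-like cells had 313 CPM (246 to 392) and 319 CPM (277 to 366), and interstitial fibroblast-like cells 217 CPM (173 to 269.6) and 257 CPM (196 to 332), which overlapped. Renin cell-like cells had 188 CPM (143 to 242) and 169.7 CPM (139 to 206), and vascular smooth muscle-like cells 97.9 CPM (62.7 to 146) and 179 CPM (140.3 to 224). The pericyte interval lay above that of every other subcluster of more than 10 cells in both libraries. Endothelial-like cells also passed the carrier rule, at 24.8 and 32.6 CPM, but without the Magi2-led subcluster, a choice made after seeing the data, their level was 6.48 and 2.18 CPM and they did not.

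No class passed the size rule for Pdgfrb, and in none of the 3 named classes compared did the interval of the ratio exclude 1. The ratio was 1.21 (0.989 to 1.48) in fibroblast-like and 1.14 (0.926 to 1.42) in pericyte or smooth muscle-like cells, where 1.7% of all genes passed in either direction and no member did. Pericyte-like cells had 1.26 (0.876 to 1.83), renin cell-like cells 0.903 (0.649 to 1.27), and vascular smooth muscle-like cells 1.83 (1.14 to 3.03), the 1 subcluster of contractile cells with an interval above 1, on 24 and 74 UMIs. After thinning, 14.8% (10.0 to 20.8) and 20.5% (15.7 to 26.0) of pericyte or smooth muscle-like cells and 28.3% (20.2 to 37.6) and 27.4% (19.5 to 36.4) of fibroblast-like cells had a Pdgfrb UMI, against 0% (0 to 2.09) and 0.098% (0.00248 to 0.545) of T cell-like cells. Over all cells the gene had 528 and 1358 UMIs, and many came from an unnamed cluster: one led by Tnc and Tagln, with Wt1 and Foxd1 among its leading genes, held 12.7% and 23.9% of them with 87 and 254 cells.

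That Tnc- and Wt1-led cluster combined ligands and the beta receptor. It passed as a source of all 4 ligands, with Pdgfa at 116 and 99.3 CPM, Pdgfb at 159 and 139.8 CPM, Pdgfc at 91.0 and 55.9 CPM and Pdgfd at 362 and 216 CPM, and had Pdgfrb at 66.3 and 90.6 CPM and 0 and 13 UMIs of Pdgfra. It was not named from any marker list: the summed pericyte or smooth muscle markers (7 and 8 of 10 detected) reached 2714 and 6852 CPM and the 6 injured tubule markers 1469 and 1406 CPM. Its ratio was 0.596 (0.525 to 0.676) for Pdgfd, 0.615 (0.478 to 0.796) for Pdgfc and 1.37 (1.05 to 1.81) for Pdgfrb. None of these passed the size rule, which 1.5% of all genes did in this cluster. A smaller unnamed cluster of 35 and 62 deep cells with endothelial and pericyte genes together also carried Pdgfrb, at 120.2 and 179 CPM. It held all 4 ligands too, with 85 and 204 UMIs of Pdgfa, 68 and 133 of Pdgfb, 49 and 74 of Pdgfc and 144 and 230 of Pdgfd. The combination was thus not particular to the Tnc- and Wt1-led cluster.

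The balance of the receptors was then compared within the mesenchymal cells. Pdgfra made up 79.4% (75.1 to 83.3) of the 399 receptor UMIs of control interstitial fibroblast-like cells and 77.2% (71.6 to 82.2) of the 259 in the haplodeficient library. In perivascular fibroblast-like cells it was 47.2% (38.8 to 55.7) of 142 and 47.1% (42.1 to 52.1) of 395. In pericyte-like cells it was 0 of 46, which allows a share of up to 6.52%, and 0 of 95, which allows up to 3.16%. The balance thus differed between the cell types beyond counting error and, within each, by less than counting error between the libraries. Over all fibroblast-like cells it was 71.0% (67.0 to 74.8) and 58.7% (54.8 to 62.5), with the mix of subclusters given above. In the contractile class of the haplodeficient library it was 4.47% (2.40 to 7.52), from 13 Pdgfra UMIs, 12 of them in a mesangial-like subcluster of 10 cells.

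**Figure D4:**
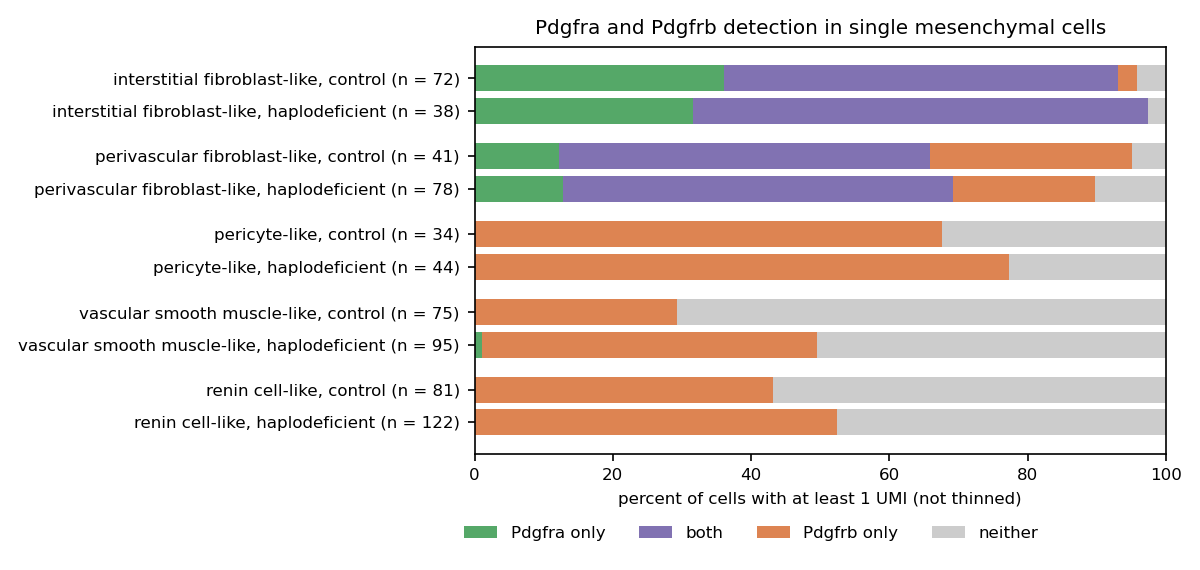
Percent of single mesenchymal cells with at least 1 UMI of Pdgfra only (green), of both receptors (purple), of Pdgfrb only (orange) or of neither (grey), for each subcluster and library, without thinning to a common depth; n is the number of cells. Cells with both receptors were frequent in the fibroblast-like subclusters, and pericyte-like cells showed Pdgfrb only.

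In single cells the receptors were seen together in fibroblast-like cells. Both had a UMI in 63 of 113 control and 69 of 117 haplodeficient fibroblast-like cells, Pdgfra alone in 31 and 22, and Pdgfrb alone in 14 and 17. In pericyte-like cells Pdgfrb alone was seen in 23 of 34 and 34 of 44 cells, and in vascular smooth muscle-like cells in 22 of 75 and 46 of 95. A cell without a UMI may still express the gene, since the median depth of pericyte-like cells was 2186 and 2684.5 UMIs.

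Sources and receivers can be set side by side from these levels. The ligands of the alpha receptor, Pdgfa and Pdgfc, came from contractile cells, from the thin and thick limbs and distal tubule (Pdgfa) and from proximal tubule, injured tubule and thick limb (Pdgfc), and the receiver was the fibroblast-like class. Pdgfb, whose product acts on both receptors, came from endothelium, injured tubule, thin limb and myeloid cells, and so faced the fibroblast-like class as well as the carriers of the beta receptor. Pdgfd, the other ligand of the beta receptor, came from endothelium, injured tubule, both limbs and contractile cells. Among the named mesenchymal groups, receivers through Pdgfrb were pericyte-like, fibroblast-like, smooth muscle-like and renin cell-like cells. The Tnc- and Wt1-led cluster, the smaller unnamed cluster with endothelial and pericyte genes and the Magi2-led subcluster also held Pdgfrb. Pericyte or smooth muscle-like cells were thus a source of Pdgfd, Pdgfa and Pdgfc and a carrier of Pdgfrb at once. These are levels of transcripts in separated cells, and neither protein nor distance between cells was measured.

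**Figure D5:**
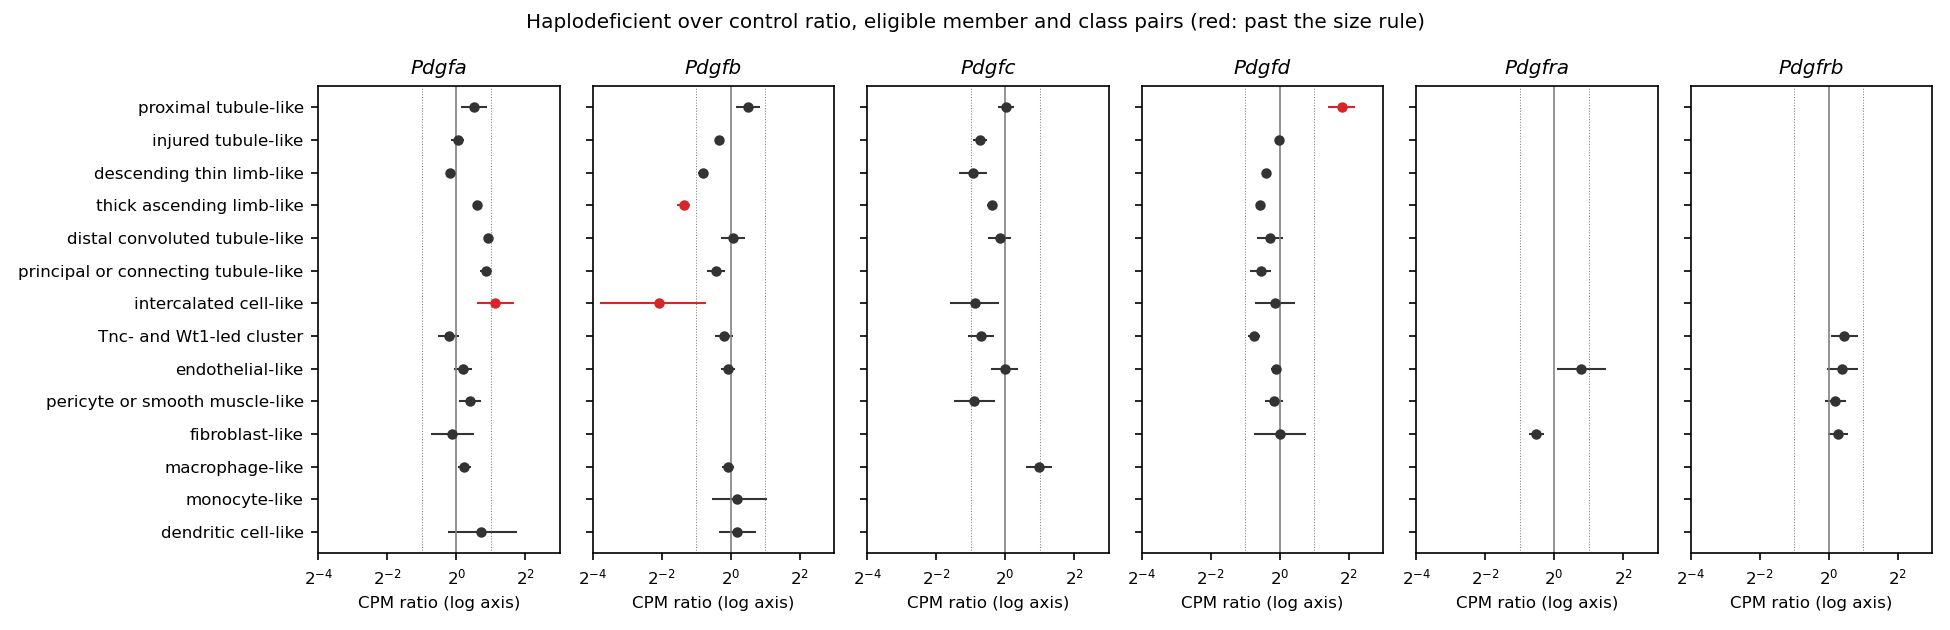
Ratio of haplodeficient over control CPM on a log axis for every PDGF gene and cell group with enough UMIs, in 13 named classes and the Tnc- and Wt1-led cluster. Points are the ratio and bars its exact 95% interval for counting error, dotted lines mark the size rule's fold, and red marks the 4 pairs past the size rule. Pdgfa leaned to higher values in distal classes, and Pdgfb to lower ones in the limbs of the loop.

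Over all 6 genes, 47 pairs of a gene and a named class could be compared, in 13 classes. The size rule was passed by 4 of them, 2 higher (Pdgfa in intercalated cell-like cells, where 1.5% of all genes were called higher, and Pdgfd in proximal tubule-like cells, where 1.84% were) and 2 lower (Pdgfb in thick ascending limb-like cells, where 0.716% were called lower, and in intercalated cell-like cells, where 1.37% were). The counting interval of the ratio excluded 1 in 26 pairs, which says that counting error is small here and nothing of the spread between animals. How often it excluded 1 among all genes was not computed. In endothelial-like cells, the class the Cre is directed at, no member passed the size rule and 0.981% of all genes compared did. No member passed in injured tubule-like, descending thin limb-like, distal convoluted tubule-like, principal or connecting tubule-like or macrophage-like cells either, where 0.678%, 1.27%, 1.4%, 2.09% and 2.56% of all genes passed, nor in monocyte-like or dendritic cell-like cells, where 3.65% and 2.06% did. The median log2 ratio of all genes compared was within 0.1 of 0 in all of these classes.

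Genes that act on PDGF ligands were read from a list of 7: Furin, Pcsk5, Pcsk6 and Pcsk7, proprotein convertases of the kind that process PDGF-A and PDGF-B, and Plat, Plau and St14, proteases reported to activate PDGF-C or PDGF-D. None of the members compared passed the size rule in endothelial-like (0 of 5), pericyte or smooth muscle-like (0 of 3), fibroblast-like (0 of 3), thick ascending limb-like (0 of 6) or descending thin limb-like cells (0 of 6). Of all genes, 0.981%, 1.7%, 3.15%, 1.05% and 1.27% passed in these classes, so a count of 0 in so short a list says little. Plat, tissue plasminogen activator, was an endothelial transcript at 1037 and 794 CPM, against 271 and 198 CPM in fibroblast-like cells. Within the contractile class, Plat was the 1 list member compared in pericyte-like and in vascular smooth muscle-like cells, and it passed in opposite directions. In pericyte-like cells it had 0 and 32 UMIs, or 242 CPM in the haplodeficient library where the control limit for a count of 0 is 37.3 CPM, and 6.03% of all genes passed. The endothelial markers Cdh5 (0 and 6 UMIs) and Pecam1 (1 and 6 UMIs) also had more UMIs there in the haplodeficient library. Their part in the Plat value was not tested. In vascular smooth muscle-like cells Plat was lower, at 212 and 82.1 CPM, and 2.59% of all genes passed. Plau, urokinase, stood at 276 and 497 CPM in descending thin limb-like cells, a source of Pdgfd, with a log2 ratio of 0.83. St14, matriptase, stood at 447 and 347 CPM in intercalated cell-like and 183 and 152 CPM in thick ascending limb-like cells. Pcsk5 had log2 ratios of -0.87 in endothelial-like and -0.95 in injured tubule-like cells, short of the rule.

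A list of 7 genes for co-receptors and ligand binding in matrix held Nrp1, Lrp1, Sparc, Thbs1, Hspg2, Ndst1 and Ext1. Of those compared, none passed the size rule in endothelial-like (0 of 6), fibroblast-like (0 of 7) or pericyte or smooth muscle-like cells (0 of 7). The shares of all genes that passed there were 0.981%, 3.15% and 1.7%. Lrp1, an endocytic co-receptor of the beta receptor, stood at 334 and 463 CPM in fibroblast-like and 71.8 and 57.2 CPM in pericyte or smooth muscle-like cells. Nrp1 stood at 682 and 750.5 CPM in endothelial-like and 264 and 402 CPM in pericyte or smooth muscle-like cells. Sparc, a matricellular protein that binds PDGF-B, stood at 3379 and 6008 CPM in fibroblast-like cells, with a log2 ratio of 0.83. In proximal tubule-like cells 2 of 4 passed, against 2.59% of all genes: Sparc was higher, at 20.5 and 66.8 CPM, and Nrp1 lower, at 52.4 and 21.5 CPM. Sparc was also higher in distal convoluted tubule-like cells, at 19.1 and 49.7 CPM, and principal or connecting tubule-like cells, at 10.2 and 32.8 CPM. Thbs1, which codes for thrombospondin, was lower in these classes too, at 22.6 and 7.16 CPM and 63.1 and 15.6 CPM, so that 2 of 6 passed in each, against 1.4% and 2.09% of all genes. It was lower in intercalated cell-like cells, at 50.9 and 19.7 CPM (1 of 4 passed, against 2.86%), and dendritic cell-like cells, at 72.1 and 30.1 CPM (1 of 5, against 2.06%). In monocyte-like cells it was higher, at 73.9 and 241 CPM on 17 and 448 UMIs (1 of 5, against 3.65%).

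Downstream of the receptors, 0 of 10 adaptors and signalling enzymes passed in fibroblast-like and 0 of 11 in pericyte or smooth muscle-like cells, against 3.15% and 1.7% of all genes. For this list the median log2 ratio was -0.17 and 0.01 in these classes, and that of all genes compared -0.0022 and 0.043. Of the genes that shut the receptors off, 2 of 8 passed in fibroblast-like cells, against 3.15% of all genes: the phosphatase Ptprj was lower, at 55.1 and 24.8 CPM, and Ptprb, which is also an endothelial marker, was higher, at 9.72 and 66.6 CPM. The 10 endothelial markers summed to 322 and 490.2 CPM in these cells, with 7 and 9 detected and Cdh5 at 0 and 2 UMIs, and their part in the Ptprb value was not tested. In perivascular fibroblast-like cells, where 3.22% of all genes passed, Ptprb passed as well, at 25.02 and 85.5 CPM. Ptprj passed in neither subcluster: it stood at 58.4 and 26.0 CPM in perivascular fibroblast-like cells, with overlapping intervals, and at 53.0 and 21.8 CPM in interstitial ones, on 20 and 5 UMIs, too few to be compared. In pericyte or smooth muscle-like cells 0 of 6 passed. Of the related receptors and ligands, Kitl, the ligand of the Kit receptor, was the 1 of 3 to pass in fibroblast-like cells, lower at 162 and 21.5 CPM, and it passed in interstitial fibroblast-like cells, at 236 and 13.1 CPM, where 3.87% of all genes did. In macrophage-like cells Gab1, an adaptor, was lower at 84.9 and 32.6 CPM, 1 of 11, and Csf1, the ligand of Csf1r, higher at 29.7 and 68.1 CPM, 1 of 3, against 2.56% of all genes. In proximal tubule-like cells Csf1r was the 1 related gene compared and was higher, at 8.81 and 33.6 CPM, against 2.59% of all genes. Csf1r is also a macrophage marker, and the summed macrophage markers were higher in these cells too, as given with Pdgfd. Their part in the Csf1r value was not tested. Although no list had a call in the whole endothelial-like class, some members passed in its named subclusters. Gab1 (log2 ratio -1.28) and Kit (-1.14) were lower in capillary-like, Shc1 (-1.25) in descending vasa recta-like and Csf1 (-1.44) in glomerular-like cells, where 2.14%, 2.86% and 2.56% of all genes passed. In activated-like cells, where 4.37% passed, Nrp1 (-1.26) and Ext1 (-1.28) were lower and Spry1 (1.23) higher.

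The genes whose pattern over cell groups was most like each member were ranked by Pearson correlation of log2(CPM + 5) over 38 sums, among 8840 genes. The sums came from 19 groups of at least 20 cells in each of the 2 libraries, with unnamed clusters among them. Podocyte-like, urothelium-like and plasmacytoid dendritic cell-like cells were too few and were left out. These sums share their library and their cells, so the values are a description. For Pdgfrb they were Des (0.99), Pde3a (0.98) and Pla2r1 (0.96), of which Des was also a marker used to name the contractile class. For Pdgfra they were Gria4 (0.96), Fndc1 (0.96) and Dnm3os (0.96). Hspb1 came first for both Pdgfa (0.90) and Pdgfd (0.90), followed by Lmna and Nenf for Pdgfa and by Col4a6 and Tcaf1 for Pdgfd. Tns1 (0.84), Gkap1 and Cttnbp2 were the nearest to Pdgfc. Pdgfb had the least close neighbours, St8sia6 (0.73), Sh3tc2 (0.73) and Scin (0.72).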

How the data were processed

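Kidney cells of 2 libraries, 1 per group, were profiled by 10x 3′ single-cell RNA sequencing. The authors deposited raw, unfiltered UMI counts per gene and barcode, made with Cell Ranger 4 per the file headers and on mm10 per the submitters' processing notes; the counting options are not given in the sources used here. The tables held 1342632 and 1430043 barcodes with 134190236 and 114668145 UMIs.

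Barcodes were kept from 500 UMIs and 200 genes upward where mitochondrial UMIs made up no more than 50% (9452 and 10026). The cells with the highest Scrublet scores were then left out as doublets at 0.8% per 1000 cells (715 and 804). Clustering used scanpy 1.11.5 and leidenalg 0.10.2 (2000 variable genes, 30 components, 15 neighbours, resolution 1), without PDGF and mitochondrial genes. A cluster was named from a marker list when at least 3 of its markers were detected in 10% of cells and raised 2-fold; this scoring rule was set after seeing the data. Endothelial and mesenchymal cells were clustered again at resolution 0.5 with 20 components.

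UMIs were summed per class and library and given as CPM with exact Poisson intervals, ratios with exact conditional binomial intervals and shares with exact Clopper-Pearson intervals (scipy 1.17.1), all at 95%. Reads of 1 molecule were collapsed by UMI, and the intervals cover counting error only. Shares of cells were compared after thinning to 1000 UMIs per cell, with shallower cells left out. A count of 0 was given a limit of 3 counts. Neither a test between groups nor leaving out a replicate was possible with single libraries. The genes named are the 6 members, pathway genes past the size rule or with a level that describes their list, and the 3 closest patterns of each member among genes reaching 50 CPM. The members and lists were chosen with earlier results of these data known.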

Additional observations from a re-analysis of the deposited data

Results flagged for a closer look

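For 5 of the genes the libraries differed in opposite directions in different classes, with counting intervals of the ratio on opposite sides of 1. None of these differences between classes was tested, since there is 1 library per group. How often other genes differ in this way was not computed. The haplodeficient over control ratio of Pdgfa was 2.20 in intercalated cell-like and 0.874 in descending thin limb-like cells. For Pdgfb it was 1.42 in proximal tubule-like and 0.237 in intercalated cell-like cells. For Pdgfc it was 1.96 in macrophage-like and 0.527 in descending thin limb-like cells. For Pdgfd it was 3.48 in proximal tubule-like and 0.676 in thick ascending limb-like cells. For Pdgfra it was 1.71 in endothelial-like cells, where most UMIs came from the Magi2-led subcluster, and 0.701 in fibroblast-like cells, where the subclusters themselves had ratios near 1.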

How the results depend on the processing

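For a selected set of ratios and the receptor balance of fibroblast-like and contractile cells, 96 recomputed values stayed within the counting interval and 16 moved out. Of the others, 705 stayed and 189 moved. These others include the called ratios of Pdgfa and Pdgfb in intercalated cell-like and of Pdgfd in proximal tubule-like cells. Of the 189, 45 were shares of cells thinned to 2000 UMIs, set against intervals at 1000 UMIs, where a shift follows from the depth. With at most 25% mitochondrial UMIs the thick ascending limb-like ratios were 1.39 for Pdgfa and 0.328 for Pdgfb. At resolution 2 they were 1.71 for Pdgfa, and 0.705 for Pdgfb in descending thin limb-like cells. With each cell named alone from its marker sums, the ratio was 0.659 for Pdgfb in descending thin limb-like cells, 0.538 for Pdgfra in fibroblast-like cells, 1.60 for Pdgfa in thick ascending limb-like cells, and 0.976 for Pdgfa and 0.887 for Pdgfrb in pericyte or smooth muscle-like cells, and Pdgfra was 53.8% of receptor UMIs in haplodeficient fibroblast-like cells. As a mean over cells the ratio of Pdgfb was 0.727 in descending thin limb-like, 1.11 in endothelial-like and 0.580 in thick ascending limb-like cells, and that of Pdgfa 1.77 in the last. With the same cluster weights in both libraries it was 1.03 for Pdgfra in fibroblast-like and 1.27 for Pdgfa in thick ascending limb-like cells. The cause was not tested. Short of the size rule in the main values, Pdgfa in principal or connecting tubule-like cells passed it with each cell named alone, at 2.13, and Pdgfa in distal convoluted tubule-like cells with at least 1000 UMIs per barcode, at 2.06. The Pdgfrb ratio in endothelial-like cells was 0.910 with doublets kept and 0.337 without the Magi2-led subcluster, an alternative chosen after seeing the data. No paired analysis was possible because each group has 1 library, and for the same reason no library could be left out. At the depth of the 34 and 44 pericyte-like cells, a count of 0 allowed up to 37.3 and 22.7 CPM.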
